A study of Macaca mulatta with 8 samples.

Results

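The genes described here are the WNT ligands, their receptors and the proteins that modulate the signal, measured in granulosa cells of rhesus macaques before and after an ovulatory stimulus. The rule that picks them uses symbols and no measured value: it takes genes whose platform symbol begins with WNT, FZD, SFRP, DKK, AXIN, RSPO, APCDD, DVL or TCF7, the receptors LGR4 to LGR6, and LEF1, CTNNB1, LRP5 and LRP6. The rule found 48 genes of the 14132 measured, with 88 probe sets (groups of short probes for 1 transcript). CTNNB1 and LEF1 had no probe set with a single symbol and were not analysed here. LGR6, AXIN1 and FZD2 are not among the 48 either, so the family counts below cover measured genes only.

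The cells came from follicles under follicle-stimulating hormone (FSH) alone (the PM-GC group, before hCG) or from follicles that matured in the animal after a further dose of human chorionic gonadotropin (hCG), the surrogate of the ovulatory surge (the VVM-GC group, after hCG). Each group has 4 RNA samples, each hybridised to its own Affymetrix array, and FSH was given in both. By the series design these are mural granulosa cells, which line the follicle wall, but the source names of the samples refer to cumulus-oocyte complexes. Which animal gave each sample, its age and the time from hCG to collection are not stated in the labels, so p-values measure the spread between these samples only, which may be partly technical.

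WNT proteins are secreted lipid-modified signals that bind frizzled receptors together with the co-receptors LRP5 or LRP6. In the canonical branch this stops the destruction of beta-catenin, which then activates genes with the TCF and LEF factors; other branches act through cell polarity and calcium. In the ovary the pathway is known for its part in the choice of ovarian fate and in follicle growth, and in rodents several of its genes respond to the ovulatory surge.

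Values below are log2 intensities, and a change is the mean after hCG minus the mean before hCG on that scale. A gene is represented by its brightest probe set and is called higher or lower where limma's adjusted p, over all 14132 genes, lies under 0.05. Intensities of different probe sets are not comparable with each other, so no level is set against that of another gene. The sums over cell markers given below do add such intensities, so each sum is weighted towards its brightest probe sets. In bulk RNA, fewer cells with a transcript and less transcript per cell cannot be told apart.

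Of the 48 WNT genes, 5 were higher and 4 were lower after hCG. That is 18.8% of them, against 23.8% of all genes, 11.3% higher and 12.5% lower, so the share of WNT genes called was not above the background. The groups did not overlap for 11 of the 48, or 22.9%, against 27.2% of all genes. The median change was -0.08 over the WNT genes and -0.09 over all genes. The largest change was that of a membrane inhibitor, APCDD1, which rose 53.5-fold. The calls were made among the 25 WNT genes whose mean signal lay above that of the median probe set, with 9 of 25 called (36.0%, against 29.7% of all genes above that mark). None of the other 23 was called by limma, against 7.73% of all genes below that mark. In 3 of the 23 (FZD3, FZD7 and DKK1) the unadjusted p was under 0.05. The share of all genes with such a p is not given, so this count and the like counts below have no background.

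**Figure D1:**
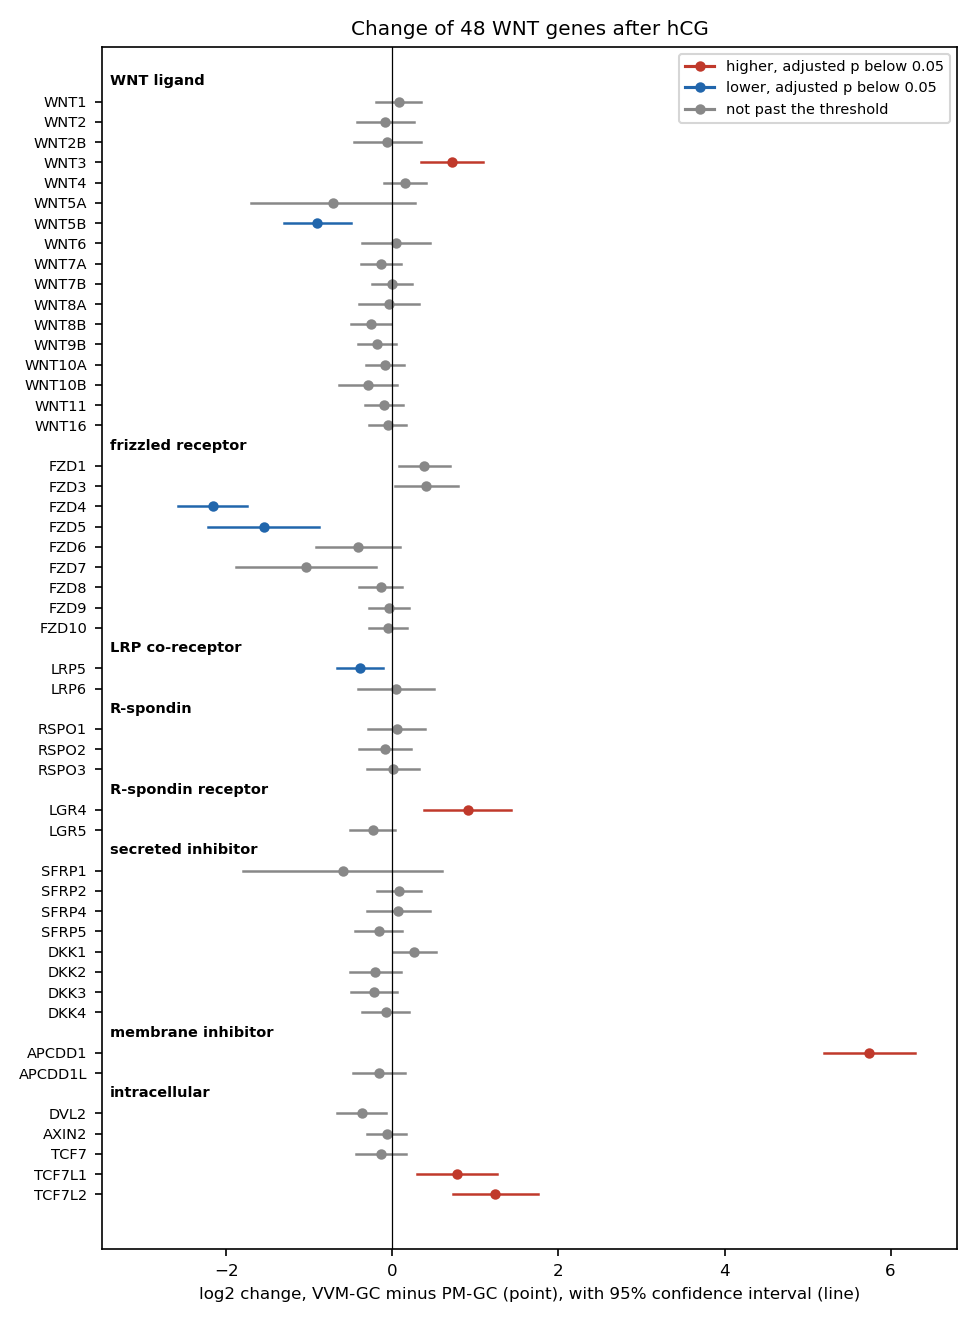
Log2 change of each of the 48 WNT genes, after minus before hCG, grouped by role, as a point with its 95% confidence interval as a line (4 arrays per group); the intervals are not adjusted for the number of genes. APCDD1 stands at 5.74, FZD4 at -2.17 is the lowest, and 39 genes in grey did not pass the threshold.

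APCDD1, a membrane protein that binds WNT and its co-receptor and dampens the signal, carried the largest change of the set. It read 6.31, 6.45, 6.75 and 7.26 in the arrays before hCG and 12.16, 12.69, 12.05 and 12.83 in those after. The lowest array after hCG lay 4.79 above the highest before, so the groups were far apart. The change was 5.74 (SE 0.24, adjusted p = 8.03e-07, limma), from 6.69 ± 0.42 to 12.43 ± 0.38 (SD, n = 4). It is measured by 1 probe set, so no other probe set bears on it. The symbol of that probe set is the platform's and was not matched to a RefSeq gene ID. Its paralog APCDD1L, at 7.38 ± 0.11 before and 7.22 ± 0.25 after hCG, did not pass (adjusted p = 0.455), with a 95% interval of the change from -0.47 to 0.16.

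Among the 17 WNT ligands, 1 was higher, 1 was lower and 15 did not pass, and 14 changed by less than 0.5 in either direction. WNT3, a ligand of the canonical branch, read 5.77, 5.02, 5.43 and 5.47 before hCG and 6.39, 6.07, 6.11 and 5.98 after. Every array after hCG was above every array before, by a gap of 0.22. Its change was 0.72 (SE 0.17, adjusted p = 0.012). A further probe set of WNT3 also passed with a smaller change of 0.39, and the third did not (0.03); the mean of the 3 rose by 0.38 and still passed (adjusted p = 0.0153). With 32 added to each intensity the change was 0.45.

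WNT5B, a ligand mainly of the branches that do not use beta-catenin, went the other way. It read 7.53, 8.12, 8.12 and 7.56 before hCG and 6.63, 7.04, 7.05 and 6.99 after, with no overlap. It fell by 0.90 (SE 0.18, adjusted p = 0.00519), a level 1.87-fold lower after hCG. Its dimmer probe set changed by -0.18 and did not pass, and the mean of both fell by 0.54. WNT5A, the closest relative of WNT5B, read 6.40, 7.26, 6.55 and 6.52 before hCG and 6.91, 6.52, 4.62 and 5.84 after. The arrays after hCG spread widely around 5.97 ± 1.01 and overlapped those before, and the change of -0.71 did not pass (SE 0.44, adjusted p = 0.281). Without replicate 3 after hCG, the lowest array, it was -0.26.

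WNT4, WNT2 and WNT11, like WNT5A, did not pass. WNT4, which female gonad development requires, averaged 5.22 ± 0.12 before and 5.38 ± 0.12 after hCG (adjusted p = 0.354), with a 95% interval of the change from -0.10 to 0.41. WNT2, described in granulosa cells, was at 3.90 ± 0.28 and 3.81 ± 0.14 (adjusted p = 0.731, interval -0.43 to 0.26). WNT11, a ligand of cell movements, was at 5.52 ± 0.09 and 5.42 ± 0.09 (adjusted p = 0.53, interval -0.33 to 0.13). The intervals of these 3 leave out a change of 0.5 in intensity in either direction. All 3 lay under the signal of the median probe set, where folds are compressed, so a larger change in RNA is not excluded. In the RefSeq gene table of assembly T2T-MMU8v2.0, WNT1 and WNT10B, WNT6 and WNT10A, and WNT3 and WNT9B are neighbours. Only WNT3 of these 6 passed: its neighbour WNT9B changed by -0.19 (adjusted p = 0.224), WNT1 by 0.08, WNT10B by -0.29, WNT6 by 0.04 and WNT10A by -0.09.

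**Figure D2:**
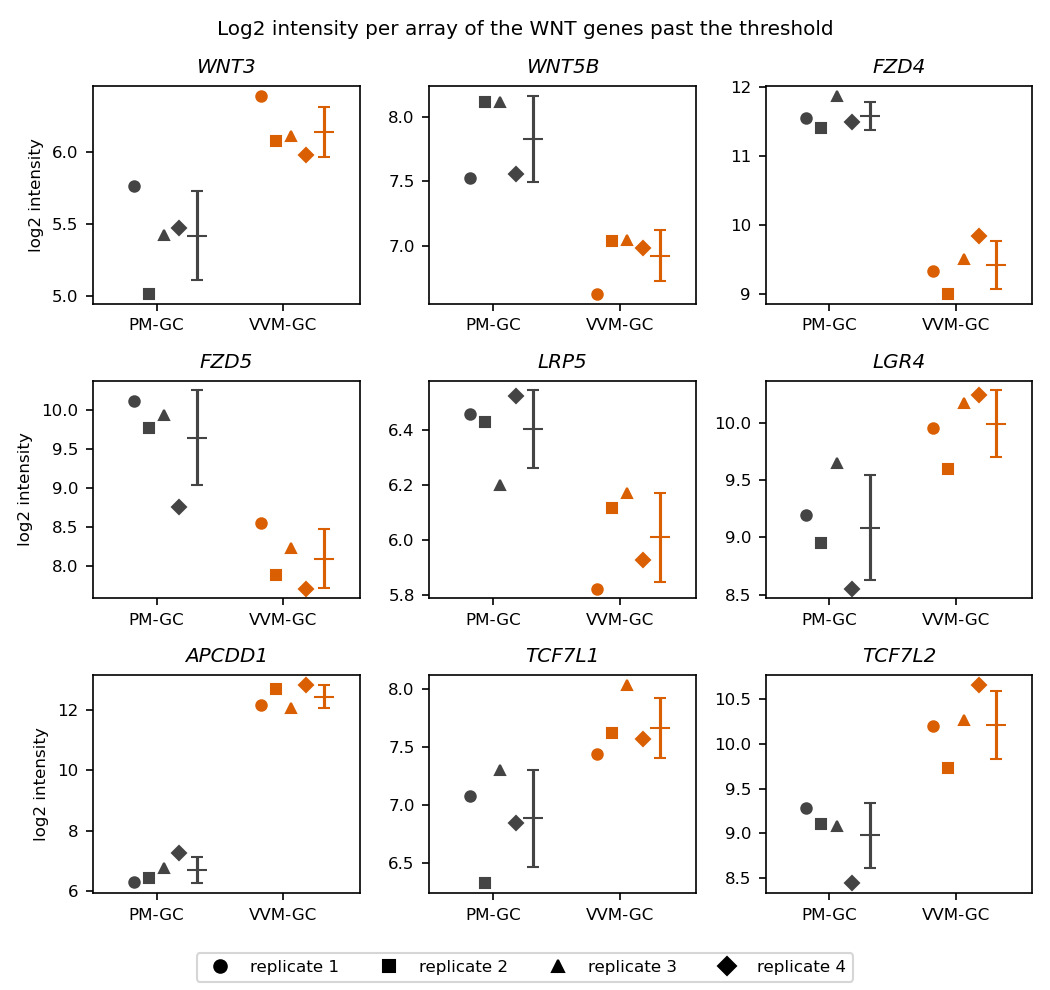
Log2 intensity in each array of the 9 WNT genes past the threshold, before (PM-GC, grey) and after hCG (VVM-GC, orange), with the replicate number as the marker shape and the mean ± SD of 4 arrays beside the points; each panel has its own axis, which does not start at 0. The groups are apart in every panel but that of LGR4, where 9.65 before hCG lies above 9.60 after.

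Of the 9 frizzled receptors, the proteins of the cell surface that bind WNT, 2 were lower and 7 did not pass. FZD4, a receptor of WNT and of the unrelated ligand norrin, known to be required for a functional corpus luteum in mice, read 11.56, 11.42, 11.88 and 11.50 before hCG and 9.33, 8.998, 9.51 and 9.84 after. The arrays of each group lay close together and 1.57 apart from the other group. It fell by 2.17 (SE 0.18, adjusted p = 4.78e-05), to a level 4.49-fold lower. Its dimmer probe set fell by 2.50, from 8.14 ± 0.14 to 5.64 ± 0.20 (SD, n = 4), also without overlap.

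FZD5, a receptor of canonical ligands, read 10.11, 9.77, 9.93 and 8.75 before hCG and 8.55, 7.89, 8.22 and 7.71 after. Replicate 4 before hCG was the lowest of its group, but still above all arrays after hCG by 0.20. It fell by 1.55 (SE 0.30, adjusted p = 0.00451), to a level 2.93-fold lower, and its dimmer probe set fell by 1.05. FZD7 was lower in the mean, at 5.95 ± 0.81 before and 4.91 ± 0.44 after hCG, but the groups overlapped and it did not pass (change -1.04, adjusted p = 0.0767). Replicate 3 before hCG read 7.12 for FZD7 against 5.29 to 5.86 in the other arrays of its group, and without it the change was -0.65.

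FZD1, which the ovulatory surge raises in the mouse ovary, depended on the probe set. Its brightest probe set read 7.47, 7.71, 7.91 and 7.88 before hCG and 7.93, 8.07, 8.25 and 8.26 after. The groups were apart by only 0.01, and the change of 0.39 did not pass (SE 0.14, adjusted p = 0.0703). A dimmer probe set read 5.78, 6.38, 6.08 and 5.78 before and 6.95, 7.03, 8.39 and 7.79 after hCG. That probe set rose by 1.53 (SE 0.30, adjusted p = 0.00766 over all 52766 probe sets), and the remaining 2 changed by 0.20 and -0.01. The mean of the 4 probe sets rose by 0.53 and passed (adjusted p = 0.025).

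FZD3, known for axon guidance and cell polarity, showed the same kind of split. Its brightest probe set changed by 0.41 and did not pass (adjusted p = 0.117). A probe set of very low signal read 2.78, 2.86, 2.77 and 2.65 before hCG and 3.46, 3.47, 4.84 and 4.79 after, a rise of 1.37 (SE 0.32, adjusted p = 0.0174 over all probe sets), and the third changed by -0.21. The mean of the 3 rose by 0.52 (adjusted p = 0.044). FZD6, FZD8, FZD9 and FZD10 changed by -0.42 to -0.04, and none passed.

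LRP5 read 6.46, 6.43, 6.20 and 6.52 before hCG and 5.82, 6.12, 6.17 and 5.93 after. The groups were apart by 0.03. It fell by 0.39 (SE 0.12, adjusted p = 0.0457), and this call was lost in 9 of 16 alternatives, with adjusted p up to 0.111. LRP6, its partner in that role, did not pass (6.96 ± 0.27 before, 7.01 ± 0.38 after hCG, adjusted p = 0.902), and the interval of its change ran from -0.42 to 0.50.

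R-spondins are secreted proteins that keep frizzled receptors on the cell surface, and LGR4 and LGR5 are their receptors. None of the 3 R-spondins was called by limma, and 0 had an unadjusted p under 0.05. RSPO1, required for ovarian development, averaged 4.75 ± 0.30 before and 4.80 ± 0.09 after hCG (adjusted p = 0.828), and RSPO2 and RSPO3 changed by -0.09 and 0.01. LGR4 read 9.19, 8.95, 9.65 and 8.55 before hCG and 9.96, 9.60, 10.18 and 10.24 after. Replicate 3 before hCG lay just above replicate 2 after hCG, so the groups overlapped by that pair. LGR4 rose by 0.91 (SE 0.23, adjusted p = 0.0196), 1.88-fold; without replicate 2 before hCG the adjusted p was 0.052. Its dimmer probe set changed by 0.12, and the mean of both rose by 0.51. LGR5, a stem cell marker in several epithelia, was at 5.54 ± 0.18 and 5.31 ± 0.09 and did not pass (adjusted p = 0.193).

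The 8 secreted inhibitors belong to a pair of families: SFRP proteins bind WNT itself, and DKK proteins, DKK3 being the atypical one, block the LRP co-receptors. None of the 8 was called by limma in the fit over genes, 1 (DKK1) had an unadjusted p under 0.05, and their median change was -0.12. DKK3 averaged 13.04 ± 0.14 before and 12.82 ± 0.17 after hCG (adjusted p = 0.244), and all 6 of its probe sets changed by -0.34 to -0.11 without passing. DKK1 read 3.31, 3.26, 3.29 and 3.34 before hCG and 3.82, 3.46, 3.56 and 3.41 after. The groups did not overlap, but these are among the low signals of the table and the change of 0.26 did not pass (adjusted p = 0.133). A dim probe set of DKK2 fell by 0.51 (adjusted p = 0.0333 over all probe sets), while its brightest changed by -0.20.

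SFRP4, a family member described in luteinising granulosa cells, averaged 9.14 ± 0.06 before and 9.22 ± 0.36 after hCG (adjusted p = 0.792). Before hCG its 4 arrays lay between 9.06 and 9.19, and after hCG they read 9.46, 8.88, 8.94 and 9.58, on both sides of that range. One of its dimmer probe sets changed by 1.45 but with SDs of 0.96 and 1.05, and did not pass (adjusted p = 0.129). SFRP1 read 8.74, 8.10, 8.51 and 8.87 before hCG and 8.56, 6.30, 7.68 and 9.27 after. The arrays after hCG included both the highest and the lowest of the 8. Its change of -0.60 did not pass (SE 0.53, adjusted p = 0.457), with an interval from -1.79 to 0.60, and without replicate 2 after hCG it was -0.05. SFRP2, another member of the family, was at 3.07 ± 0.08 and 3.15 ± 0.17 (adjusted p = 0.66). The SD was larger after than before hCG in all 8 secreted inhibitors, as it was in 26 of the 48 WNT genes and in 7934 of the 14132 genes; these counts are a description, without a test.

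Inside the cell, both TCF7-like transcription factors were higher. TCF7L2, a factor through which beta-catenin acts on its target genes, read 9.28, 9.10, 9.08 and 8.44 before hCG and 10.20, 9.74, 10.27 and 10.66 after. All arrays after hCG were above all arrays before, by 0.46. It rose by 1.24 (SE 0.23, adjusted p = 0.00354), 2.36-fold. TCF7L2 has 6 probe sets, all with a positive change, from 0.49 to 1.44, and 4 of them passed over all probe sets.

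TCF7L1, the family member best known as a repressor, read 7.07, 6.32, 7.30 and 6.84 before hCG and 7.44, 7.62, 8.03 and 7.56 after. The gap between the groups was 0.14. It rose by 0.78 (SE 0.21, adjusted p = 0.0261); the adjusted p was 0.065 without replicate 4 before hCG, 0.0527 without replicate 2 after hCG and 0.0574 without replicate 3 after hCG. TCF7, the founding member of this family, changed by -0.14 and did not pass (adjusted p = 0.504).

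AXIN2, a scaffold of the destruction complex whose transcription follows canonical WNT signals, averaged 5.32 ± 0.10 before and 5.25 ± 0.10 after hCG (adjusted p = 0.684). The interval of its change ran from -0.31 to 0.17, and its 4 probe sets changed by -0.20 to 0.09 without passing. All 4 lay under the signal of the median probe set, where folds are compressed. DVL2, which relays the signal from frizzled receptors, read 8.02, 8.36, 8.53 and 8.17 before hCG and 7.97, 7.99, 7.77 and 7.86 after. The groups were apart by 0.03 and the change of -0.37 did not pass (SE 0.13, adjusted p = 0.0709), but it did after repeated quantile normalization (adjusted p = 0.0283) and without replicate 1 before hCG (adjusted p = 0.045).

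At the level of probe sets, 17 of the 88 passed, or 19.3%, against 14.1% of all 52766 probe sets. Of the 88, 11 were higher and 6 were lower. Among all 52766 probe sets, 3820 (7.24%) were higher and 3614 (6.85%) lower. All 88 have a symbol, but 27449 of the 52766 do not, so these shares are of unlike sets. Of the 48 genes, 21 have several probe sets, and in 9 of these the values of the probe sets lay on both sides of 0, in none of them with calls in both directions. In 3 genes (FZD1, FZD3 and DKK2) a dimmer probe set passed and the brightest did not. Both probe sets of FZD4 and both of FZD5 passed in the same direction.

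**Figure D3:**
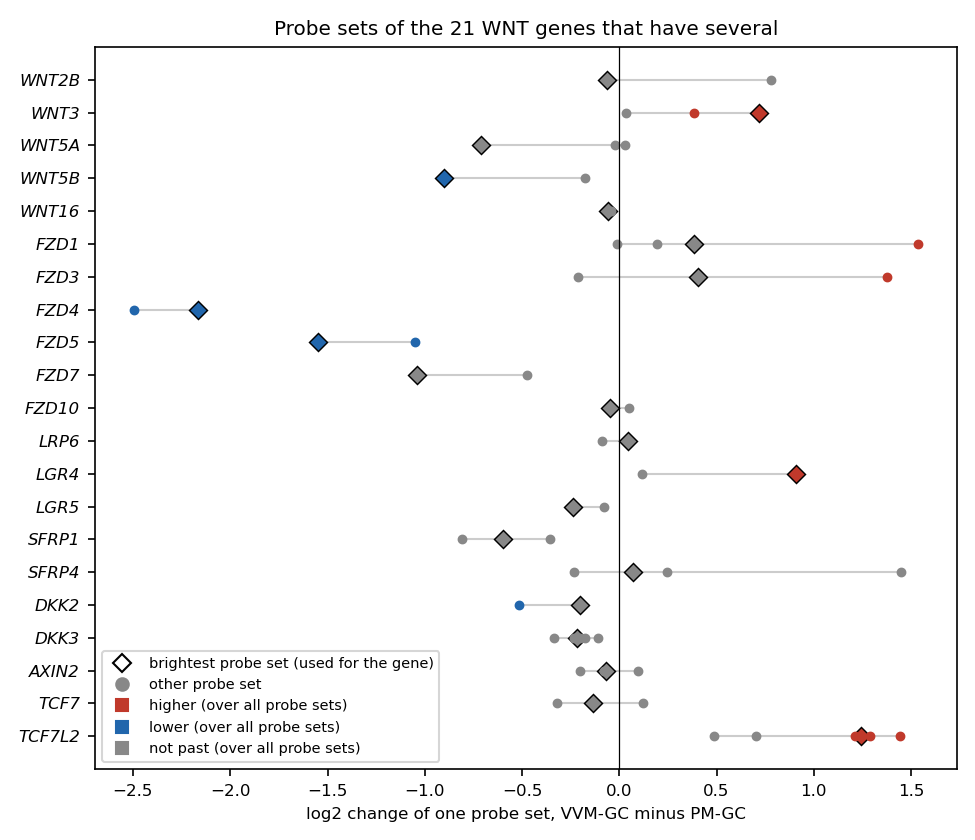
Log2 change, after minus before hCG, of every probe set of the 21 WNT genes that have several; the diamond is the brightest probe set, which stands for the gene, circles are the others, and colour shows the call over all 52766 probe sets. The probe sets of FZD4, FZD5 and TCF7L2 lie on one side of 0, whereas those of FZD1 run from -0.01 to 1.53 and those of SFRP4 from -0.23 to 1.45.

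The further lists covered other parts of WNT signalling, and 141 of their genes were measured and are not among the 48. Of these, 22 were higher and 15 lower, or 26.2%, near the 23.8% of all genes, with a median change of 0.03. In WNT secretion and release, 5 of 13 genes were higher, 2 lower and 6 did not pass (median 0.36). The higher genes include GPC4 and GPC6, glypicans that carry heparan sulphate and hold WNT at the cell surface. GPC4 read 7.75, 7.96, 8.18 and 7.23 before hCG and 11.73, 11.82, 12.09 and 12.65 after, a rise of 4.29 (SE 0.25). GPC6 read 8.16, 7.94, 9.20 and 8.42 before and 12.07, 11.58, 12.04 and 12.39 after, a rise of 3.59 (SE 0.27). Both were far apart between the groups, with adjusted p = 4.65e-06 for GPC4 and 2.3e-05 for GPC6 (limma). SDC1, a syndecan, rose by 1.75. GPC3, a further glypican, fell by 1.17 (SE 0.17), and the mean of its probe sets fell by 0.54. TRABD2A, a protease that inactivates WNT, fell by 1.02, and the mean of its probe sets fell by 0.44 and did not pass (adjusted p = 0.0662).

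None of the 7 other WNT inhibitors measured was called by limma, and 0 had an unadjusted p under 0.05 (median -0.06). KREMEN1 and KREMEN2 among them are membrane proteins, and the others are secreted. Among other receptors and proteins of receptor turnover, 2 of 8 were higher and 6 did not pass (median 0.16). ROR2, a receptor of WNT5A, read 4.92, 4.86, 4.83 and 5.13 before hCG and 7.93, 7.79, 5.82 and 5.37 after. All arrays after hCG lay above those before, replicates 1 and 2 by far the most and replicate 4 the least. It rose by 1.79 (SE 0.54, adjusted p = 0.0372), a call lost in 7 of 16 alternatives. CCNY, a cyclin of the membrane that promotes LRP6 phosphorylation, rose by 0.87.

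In the beta-catenin destruction complex and its regulators, 2 of 19 were higher, 2 lower and 15 did not pass (median 0.05). AMER1, which brings the complex to the membrane, read 7.99, 8.15, 7.68 and 8.21 before hCG and 6.26, 6.18, 6.16 and 6.28 after, so the groups were well apart. It fell by 1.79 (SE 0.13). FRAT1, which binds the kinase GSK3, fell by 1.15, and CSNK1G3, a casein kinase, rose by 0.77 (0.43 as the mean of its probe sets). FBXW11, an F-box protein that recognises beta-catenin, rose by 0.68, a call lost in 6 of 16 alternatives. Among nuclear partners of beta-catenin, 3 of 19 were higher, 3 lower and 13 did not pass (median 0.05). TBL1X, a transcriptional coregulator, rose by 2.09 and TLE3, a Groucho corepressor, by 1.24 (0.69 as the mean of its probe sets). HIPK2 rose by 0.87 (0.51 as the mean of its probe sets). TLE2, another Groucho corepressor, fell by 0.60 and BCL9, a coactivator of beta-catenin, fell by 0.69. CHD8 fell by 0.73, but its groups overlapped and the call was lost in 9 of 16 alternatives.

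Of 11 cytoplasmic modulators, 1 was lower and 10 did not pass (median -0.22); the lower gene was CXXC5, a zinc finger protein that binds dishevelled, which fell by 1.70 (SE 0.24). In planar cell polarity, 1 of 16 was higher, 2 lower and 13 did not pass (median -0.11). PRICKLE2 rose by 1.86, and VANGL2 and CELSR3 fell by 0.42 and 0.43, calls lost in 4 and 5 of 16 alternatives. In WNT calcium signalling, 4 of 15 were higher and 11 did not pass (median 0.02). PPP3CC, a catalytic subunit of calcineurin, read 7.26, 7.18, 7.23 and 7.43 before hCG and 10.13, 10.01, 9.99 and 9.93 after. This was a tight and complete separation, with a rise of 2.74 (SE 0.10). PRKCA, a protein kinase C, rose by 2.14 and NFATC4, a factor activated by calcineurin, by 2.07; the means of their probe sets rose by 1.11 and 1.04.

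Genes known elsewhere as targets of beta-catenin went both ways: 4 of 30 were higher, 5 were lower and 21 did not pass (median 0.01). PLAUR, the urokinase receptor, rose by 3.26 (SE 0.35), and the mean of its probe sets by 2.03. EFNB1, an ephrin ligand, fell by 3.97 (SE 0.15), and the mean of its probe sets fell by 2.75. NR0B1, a nuclear receptor that represses steroid synthesis, fell by 0.83, and by 0.36 with 32 added to each intensity. MITF, a factor of pigment cells, fell by 1.75, but the mean of its probe sets changed by -0.26 and did not pass (adjusted p = 0.423). TNFRSF19 and VCAN rose by 1.47 and 0.65, calls lost in 5 of 15 and 5 of 16 alternatives; the means of their probe sets changed by 0.46, which did not pass, and 1.42. Of 6 cadherin partners of beta-catenin, 1 was higher and 5 did not pass (median 0.35): CTNNA2, an alpha-catenin of neurons, rose by 1.56, a call lost in 5 of 15 alternatives; with 32 added to each intensity the change was 0.63.

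**Figure D4:**
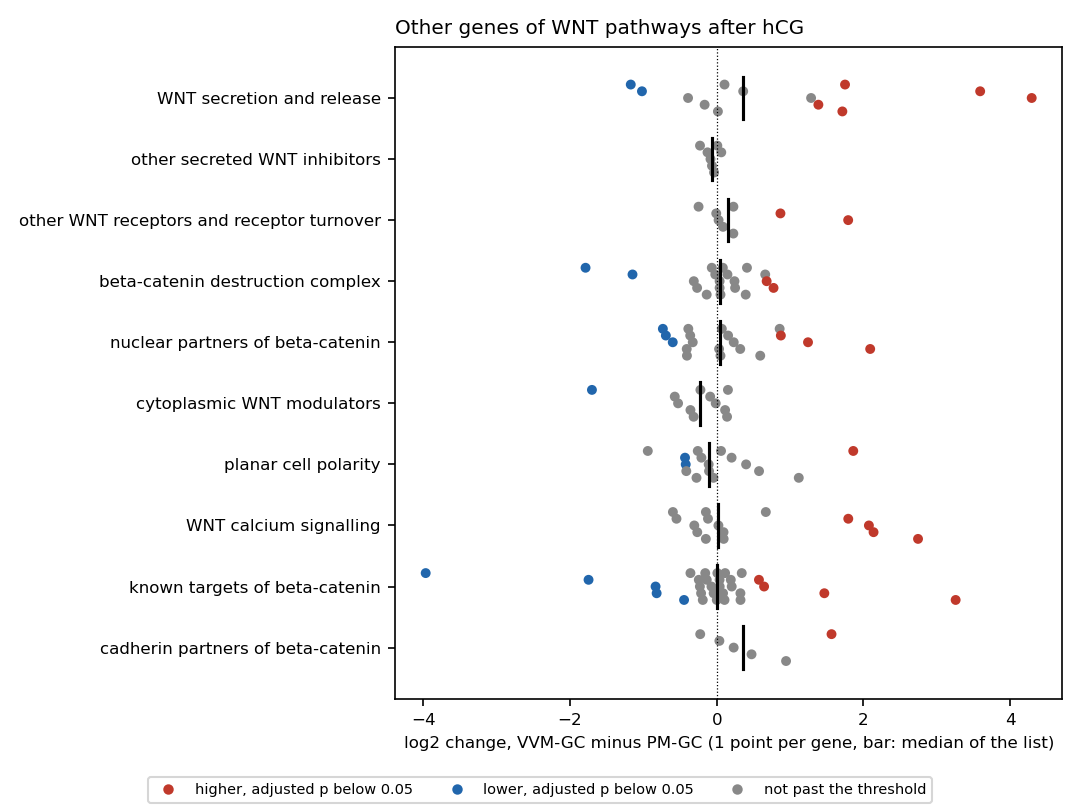
Log2 change, after minus before hCG, of each measured gene of 10 further lists of WNT signalling, 1 point per gene, with the median of each list as a bar and colour for the call. The medians lie between -0.22 and 0.36, and single genes such as GPC4 at 4.29 and EFNB1 at -3.97 stand far from them.

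The arrays agreed closely, with Pearson correlations over all probe sets of 0.984 to 0.988 before hCG, 0.974 to 0.984 after hCG and 0.935 to 0.957 between the groups. Of 12 granulosa markers measured, 10 were lower and none higher after hCG; FSHR and FOXL2 are not among the 12. INHA, the inhibin alpha subunit, was at 14.07 ± 0.08 before and 13.50 ± 0.19 after hCG. The summed linear intensity of the 12 granulosa markers was 36560 to 45682 before and 20858 to 24892 after hCG. Of 7 cumulus genes, 5 were higher and 1 lower. The cumulus sum was 7143 to 9379 before and 13333 to 17031 after hCG. VCAN, which rose by 0.65, has the highest signal and weighs most in that sum. AREG, PTX3, TNFAIP6 and HAS2 rose by 6.77, 6.74, 5.43 and 2.75, TNFAIP2 fell by 2.24, and GREM1 did not pass. The summed linear intensity of 9 oocyte markers was 770 to 983 before and 1367 to 2382 after hCG, with 1 of 9 called: KIT, a receptor that other cells also carry, rose by 3.07. Without KIT, taken out after its values were seen, the sums of the other 8 overlapped, at 686 to 852 before and 681 to 950 after hCG. That of 6 erythrocyte markers was 1754 to 2415 before and 423 to 1585 after, with 2 lower, HBA and ALAS2, calls lost in 7 and 4 of 16 alternatives. That of 9 surface epithelium markers was 806 to 985 before and 1035 to 1624 after, with 2 higher, KRT18 and KRT19. The other 7 did not pass, and the median change of the 9 was -0.06. KRT18 rose by 2.25, and by 1.01 as the mean of its probe sets, and the KRT19 call was lost in 6 of 16 alternatives. Leukocyte markers (1 of 11 lower, CSF1R) had sums of 1586 to 1858 before and 565 to 2260 after, and the lowest array was replicate 3 after hCG, which was also the lowest for WNT5A. The sums of theca (1 of 5 lower, CYP17A1), endothelium (1 of 12 higher, ENG) and stroma (1 of 7 higher, TAGLN) overlapped between the groups. With the mean of the probe sets, the calls of CYP17A1, ENG and TAGLN were lost. That was the only setting that ended the ENG call, while those of CYP17A1 and TAGLN were lost in 7 of 15 and 7 of 16 alternatives. None of the 48 WNT genes is in a marker list, no marker can be called absent without detection calls, and the part of these markers in the results was not tested.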

How the data were processed

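Granulosa cell RNA (50 ng per sample) was purified, amplified linearly and labelled with biotin, per the labels' protocols. The authors deposited intensity values per probe set, with RMA (a background-corrected, quantile-normalized probe summary) and Affymetrix Expression Console named in the submitters' processing notes and versions not given in the sources used here. The deposited intensity values are linear, so log2 was taken. Of 52865 rows, 99 array controls were left out. GEO's platform annotation gave 1 symbol to 24956 probe sets, updated through RefSeq gene IDs; 87 of the 88 WNT probe sets matched, and APCDD1 kept its platform symbol. The brightest probe set by mean log2 stood for each gene. The groups were compared with limma 3.58.1 in R 4.3.3 (lmFit, eBayes, Benjamini-Hochberg over 14132 genes or 52766 probe sets). This procedure was also run on simulated data with independent noise and few changed genes. That run has no bearing on effects that an array or animal shares across genes. The number of arrays limits the precision.

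Alternatives were the mean of all probe sets, 32 added to each intensity, a low-signal filter, repeated normalization, median centring, a replicate block, a variance trend, adjustment over all probe sets, and leaving out each array. Named genes are all WNT genes past the threshold or with another probe set past it, 21 index members (19 measured), up to 3 genes per direction in each further list, and markers called or of highest signal. The members and lists were chosen with earlier results of these data known. Uncalled WNT genes named beyond that rule were picked after their values were seen.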

Additional observations from a re-analysis of the deposited data

Results flagged for a closer look

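In 8 of the 96 sets of 4 arrays (48 genes in 2 groups) the highest or lowest array stood apart from the other 3 by more than Dixon's 95% critical value; chance alone gives about 1 in 20. For WNT5A, replicate 2 before hCG read 7.26 and the nearest other array 6.55. For WNT5B, replicate 1 after hCG read 6.63, below the other 3 at 6.99 to 7.05. For WNT6, replicate 3 after hCG read 5.05 against 4.48 in the nearest array. For FZD7, replicate 1 after hCG read 5.56 against 4.76. For WNT8B, replicate 2 before hCG read 5.53 against 5.71, and for RSPO3 the same array read 3.79 against 4.003. For FZD9 and DKK4, replicate 1 before hCG read 5.41 against 5.48 and 4.92 against 5.16.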

How the results depend on the processing

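Over 16 alternatives, the counts of WNT genes higher and lower, of further WNT pathway genes and of all genes, and over 14 of them the count of WNT probe sets, stayed within 1.5 times the main counts. Of 745 recomputed changes of the 48 genes, 13 lost the call and 5 gained it; no called change turned its sign, and 31 uncalled changes did. WNT3, WNT5B, FZD4, FZD5, APCDD1 and TCF7L2 passed in all 16. The LRP5 call was lost with median centring (adjusted p = 0.0562), the replicate block, adjustment over all probe sets and without 6 of the arrays in turn. Same-numbered arrays of the groups had correlated deviations of 0.0111, 0.165, 0.0499 and -0.0261, so the numbers were not taken as pairs. With the replicate block, 3063 genes passed in place of 3359, LRP5 was lost (adjusted p = 0.104) and FZD1 gained (adjusted p = 0.0441). Of all genes called, 47.5% were higher; with repeated quantile normalization this share was 40.8%, and with median centring 52.4%. Genes of low signal have compressed folds, and the 4 arrays per group limit what small changes could be called.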

Other observations

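The arrays after hCG differed among themselves in several WNT genes, which were picked after their values were seen; the values are given by replicate, 1 to 4, without a test. ROR2 read 7.93, 7.79, 5.82 and 5.37. The dimmer probe set of FZD1 that passed read 6.95, 7.03, 8.39 and 7.79, and that of FZD3 read 3.46, 3.47, 4.84 and 4.79. WNT5A read 6.91, 6.52, 4.62 and 5.84. SFRP1, with an SD of 1.28 after hCG, read 8.56, 6.30, 7.68 and 9.27, in a different order. Over the 9 WNT genes called, replicates 1 to 4 were the farthest from the mean before hCG in 3, 1, 1 and 4 genes, and the nearest in 2, 2, 3 and 2. In the same order, the 3' probe set of ACTB exceeded its 5' probe set by 4.47, 4.83, 5.18 and 4.61, a measure of RNA integrity, and the leukocyte markers summed to linear intensities of 1511, 2260, 565 and 1234. The part of these measures in the spread of the WNT genes was not tested.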
